A study of Rattus norvegicus with 36 samples.

Results

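The genes described here are 9 genes of coagulation and fibrinolysis in the rat lung: F3, F7, F10, F13a1, Plat, Plau, Plaur, Thbd and Procr. They were chosen by name, without a threshold on signal but with earlier results of these data known. They are 9 of the 25597 genes named on the array. They have 12 probes, all 9 genes passed the filter on dim probes, and they are therefore 9 of the 23940 genes tested. The study instilled female Sprague Dawley rats with particles of DQ-12, a quartz dust used as a reference crystalline silica, and collected the lungs at 3 time points. RNA from the accessory lobe of each rat was hybridised to a one-colour oligonucleotide array, 36 arrays in all.

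The rats were 13 weeks old at instillation and of the same sex and strain in every group. Vehicle rats received sterile saline in the trachea, and the treated animals were given 10 mg of DQ-12 each by the same route. Lungs were taken 1 day (D1), 30 days (D30) or 180 days (D180) later, with 6 rats in each of the 6 groups. The question put to these genes was whether their signal differed between DQ-12 and vehicle rats of the same time point, and whether that difference changed with time.

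Coagulation starts when tissue factor, the product of F3, meets factor VII in the plasma. The complex activates factor X, thrombin is formed, fibrin polymerises, and factor XIII cross-links it. Fibrin is removed by plasmin, which tissue-type and urokinase-type plasminogen activators (Plat and Plau) release from plasminogen, the latter while bound to its receptor Plaur. On the endothelium thrombomodulin (Thbd) turns thrombin toward the activation of protein C, which the endothelial protein C receptor (Procr) presents. In the lung, tissue factor is abundant in the epithelium, thrombomodulin and Procr mark the vessel wall, and Plaur is carried by macrophages and neutrophils.

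The share of probes well above background ran from 51.4% to 75.5% of the probes of an array, and 36 arrays limit the precision of every value below. The labelled tissue was checked by its markers, and all 7 alveolar type 1 and all 8 alveolar type 2 markers were well above background in each group. The arrays were spread over 19 slides and 11 scan dates, and these were unevenly shared between the groups. At D1 a single scan date held both treatments, with all 6 DQ-12 rats and 1 vehicle rat. At D30 both scan dates held both treatments, the first with 4 vehicle rats and 1 DQ-12 rat and the second with 2 and 5. At D180 only 2 of 6 scan dates did, with 3 rats of each treatment on the first and 1 of each on the second, and 1 slide of 10 held both treatments, with 1 rat of each. Values with scan date or slide as a term are given beside the genes of the 9 that passed and beside the DEGs of the pathway. With either as a fixed term, a D1 change rests on 1 vehicle rat. With slide as a fixed term, a D180 change is the difference between 1 rat of each treatment.

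Of the 9 genes, Plaur alone reached a fold change (FC) of 2 with an adjusted p under 0.05, the threshold for a differentially expressed gene (DEG), at D180. At the adjusted p alone, F3 and Thbd passed at D1, Thbd at D30, and F3, Plaur, Thbd and F13a1 at D180. F3 and Plaur were higher after DQ-12 wherever they passed, and Thbd and F13a1 were lower. All p-values called adjusted are from limma with Benjamini-Hochberg adjustment over the 23940 genes. Changes are differences of log2 quantile-normalized signal, DQ-12 minus vehicle, and with 6 rats against 6 the exact two-sided permutation test cannot give a p below 0.00216. In bulk tissue, fewer cells of a type and less RNA per cell cannot be told apart.

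**Figure D1:**
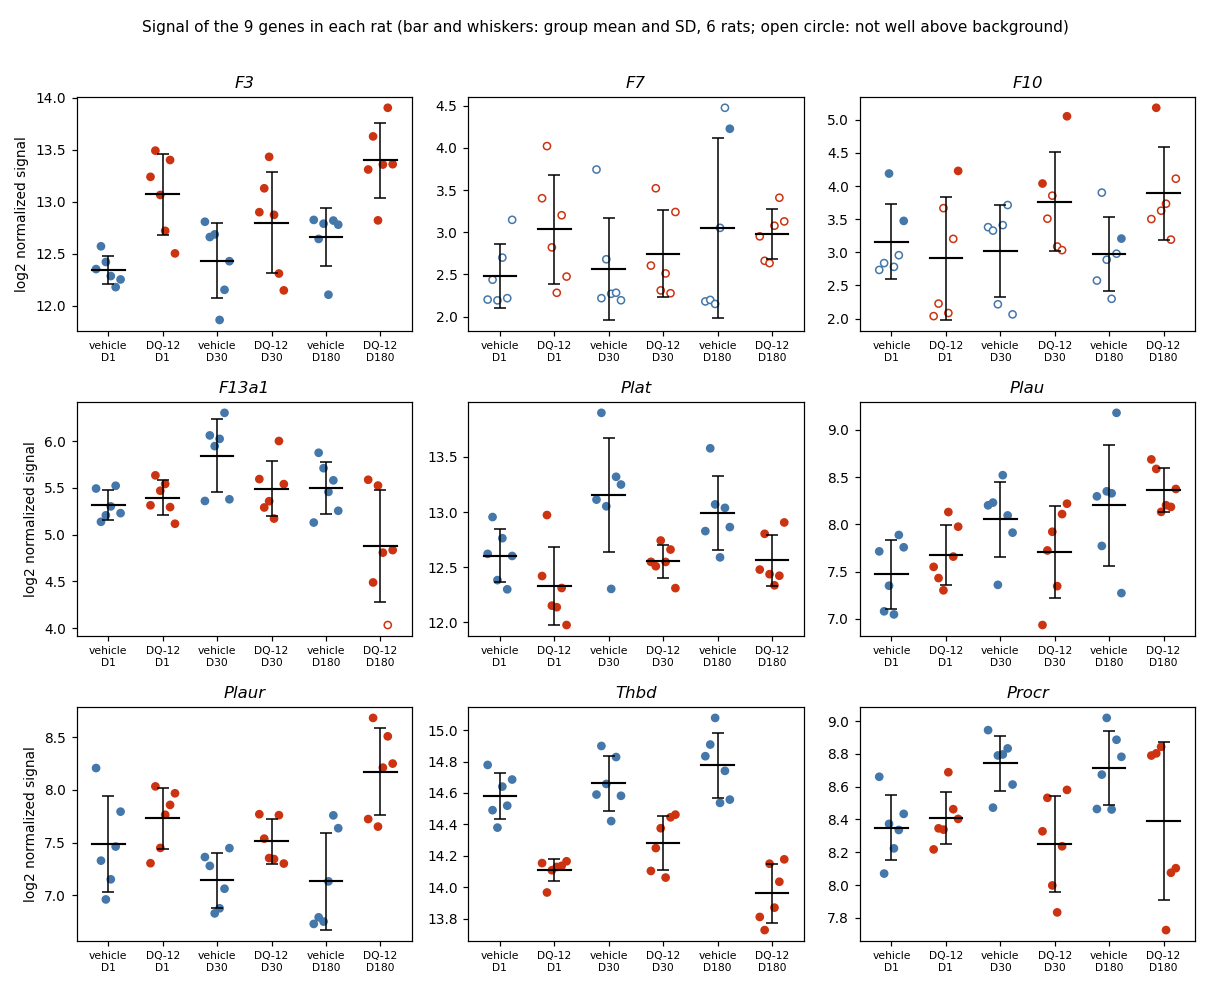
Log2 normalized signal of each of the 9 genes (vertical axes, 1 panel a gene) in the vehicle (blue) and DQ-12 (red) rats at D1, D30 and D180; each point is a rat, the bar and whiskers are the mean and SD of 6 rats, and open circles were not well above background. The DQ-12 rats of Thbd lie below all vehicle rats at D1 and D180, while most F7 and F10 points are open.

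Counts among the 9 genes are given beside the share of all genes tested. At D1, 0 of 9 were DEGs, where 3.07% of all genes tested were; 1 gene passed the adjusted p upward (7.58% of all genes) and 1 downward (8.62%). At D30, 0 of 9 were DEGs (1.05% of all genes), 0 passed upward (2.74%) and 1 downward (1.24%). At D180, 1 of 9 was a DEG (3.63% of all genes), 2 passed upward (7.82%) and 2 downward (9.0%). For the counts of 0 DEGs by limma, the number of genes with an unadjusted p under 0.05 was 2 at D1 and 3 at D30. The treatments did not overlap for 1 gene at D1, 0 at D30 and 1 at D180, where 11.2%, 2.36% and 7.31% of all genes without missing values were so separated. The median change over the 9 genes was 0.08 at D1, -0.34 at D30 and -0.07 at D180, beside -0.01, -0.02 and -0.03 over all genes tested. Of all DEGs at D1, 65.8% were higher after DQ-12, and 36.8% were when the arrays were scaled by their 75th percentile instead, which moved the median of all genes from -0.01 to -0.10. The directions of F3, Plaur and Thbd were the same under both scalings at each time point.

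F3 encodes tissue factor, the membrane receptor that starts coagulation. Its signal at D1 ran from 12.18 through a median of 12.32 to 12.57 in vehicle rats and from 12.50 through 13.15 to 13.49 in DQ-12 rats. Of the DQ-12 rats, 5 of 6 stood above every vehicle rat. The change was 0.73 ± 0.20 (SE, n = 6 per group), an FC of 1.66, with a limma adjusted p of 0.0117 and an exact permutation p of 0.00433.

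At D30 the F3 ranges overlapped, from 11.86 to 12.81 (median 12.54) in vehicle rats and from 12.15 to 13.43 (median 12.89) in DQ-12 rats. The difference was 0.37 ± 0.20 (SE), with a 95% confidence interval (CI) of -0.05 to 0.78 and a limma adjusted p of 0.399. At D180 vehicle rats lay between 12.10 and 12.82 (median 12.78) and DQ-12 rats between 12.82 and 13.90 (median 13.36). Again 5 of 6 DQ-12 rats stood above all vehicle rats, and F3 was 1.67-fold higher (change 0.74 ± 0.20, SE, limma adjusted p = 0.00882). Ordered by mean, the 3 vehicle groups were the lowest and the 3 DQ-12 groups the highest, but no neighbouring pair in that order differed beyond its spread.

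With scan date as a fixed term, the F3 change at D1 was 0.65 with a limma adjusted p of 0.586, and as a random term 0.70 with 0.104. With slide as a fixed term it was 0.88, also against 1 vehicle rat. At D180 it was 0.83 (limma adjusted p = 0.0420) with scan date and 1.20 with slide, the latter from 1 rat of each treatment. Within the scan dates that held both treatments, F3 differed by 0.65 at D1, by -0.20 and 0.62 at D30, and by 0.68 and 1.26 at D180. The D30 value of -0.20 rests on 1 DQ-12 rat, the D1 value on 1 vehicle rat and the value of 1.26 on 1 rat of each treatment. Of 8 alveolar type 2 markers, 1 passed upward and 1 downward at D1. At D30, where F3 did not pass, 3 passed upward, and at D180 4 did. Their summed linear signal at D1 was 776024 to 864692 in vehicle rats and 826620 to 928020 in DQ-12 rats. At D30 the sums of these markers were 816190 to 889248 and 947889 to 995644, without overlap. At D180 they were 738261 to 818322 and 791126 to 962402. Their part in the F3 result was not tested.

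F7 and F10 encode the vitamin K-dependent factors that tissue factor first engages, and both are made chiefly by the liver. The F7 probe was well above background on 1 of 36 arrays and the F10 probe on 7 of 36. F7 signals ran from 2.15 to 4.48 over all rats and F10 signals from 2.04 to 5.18, so both genes sat at the dim end of the scale. The vehicle and DQ-12 rats overlapped for both genes at each time point, and neither passed the test. The largest limma difference was 0.92 for F10 at D180 (95% CI 0.10 to 1.73, adjusted p = 0.120), where 1 array of each treatment was well above background. No fold is given for either gene, since the groups below background give only a limit. The 2 genes lie close together on chromosome 16, and in the build of the array design (rn4) the F10 probe lies at chr16:81327721-81327780 and the F7 probe begins at chr16:81350761, both on the minus strand.

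F13a1 encodes the catalytic A chain of factor XIII, which cross-links fibrin and is carried by platelets and by macrophages. At D180 its signal ran from 5.13 through 5.52 to 5.88 in vehicle rats and from 4.03 through 4.82 to 5.59 in DQ-12 rats. Of the DQ-12 rats, 4 of 6 stood below every vehicle rat and the other 2 lay within the vehicle range. F13a1 was 1.54-fold lower in DQ-12 rats, a change of -0.62 ± 0.20 (SE, n = 6 per group), with a limma adjusted p of 0.0273 and an exact permutation p of 0.0455.

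The F13a1 changes were 0.08 (95% CI -0.33 to 0.49) at D1 and -0.35 (-0.76 to 0.05) at D30, and neither passed. The D180 change did not pass with scan date as a fixed term (-0.63, limma adjusted p = 0.120). With slide as a fixed term it was 0.13, the difference between 1 rat of each treatment on 1 slide. Within the 2 scan dates that held both treatments it was -0.23 and, with 1 rat of each, -1.84. It did not pass either with array weights (limma adjusted p = 0.0904), with the 12 arrays of D180 alone (0.162), or without vehicle rat 2 or 3 or DQ-12 rat 2, 4 or 5 of D180, with adjusted p from 0.0502 to 0.103. At D180, 2 of 7 platelet markers passed downward, with summed signals of 3475 to 5831 in vehicle rats and 3339 to 5925 in DQ-12 rats, where Gp5 was not well above background. Of 10 macrophage markers 4 passed upward and 2 downward, with summed signals of 16564 to 22135 in vehicle rats and 29146 to 43775 in DQ-12 rats. On the log2 scale, those that rose were Marco by 2.62, Fabp4 by 2.53, Siglec1 by 1.96 and Cd68 by 1.55. Those that fell were Cd163, a haemoglobin scavenger receptor, by 0.89 and Mertk by 0.41. The part of either cell type in the F13a1 result was not tested.

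Plat encodes tissue-type plasminogen activator, which endothelium releases. Its mean signal was lower in DQ-12 rats at each time point, by 0.28 at D1, 0.60 at D30 and 0.43 at D180, and no time point passed the test. At D30 vehicle rats ran from 12.30 to 13.90 (median 13.18) and DQ-12 rats from 12.31 to 12.74 (median 12.55), so the DQ-12 rats lay inside the vehicle range. The limma adjusted p was 0.0623 with a 95% CI of -0.98 to -0.22. The exact permutation p was 0.0173, or 0.0584 adjusted as for F13a1, for this D30 change. The D30 change passed with array weights (limma adjusted p = 0.00286), without vehicle rat 4 of D30 (0.00492) and in several other settings with adjusted p down to 0.0177. With scan date as a fixed term it had a limma adjusted p of 0.559. At D180, 4 of 6 DQ-12 rats were below all vehicle rats (limma adjusted p = 0.118).

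Plau encodes urokinase, the plasminogen activator of the cell surface. The probe with the higher signal gave differences of 0.20, -0.34 and 0.16 at D1, D30 and D180, with intervals that all included 0 (from -0.29 to 0.69, from -0.84 to 0.15 and from -0.33 to 0.65). The second Plau probe, well above background on 28 of 36 arrays, gave 0.35, -0.18 and 0.39 and did not pass either. The signal moved more with time than with treatment: vehicle rats at D180 were 0.73 above those at D1 (limma adjusted p = 0.0487). Time points were different rats on largely different scan dates, which cannot be told apart from time.

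Plaur encodes the urokinase receptor, which holds urokinase at the cell surface. The 2 probes for it are shown, because they gave different changes at D1. Both are printed 5′ to 3′ in lower case, and both lie on the plus strand of chromosome 1 in rn4, the first at chr1:79712786-79712845 and the second at chr1:79713035-79713094.
Plaur, first probe: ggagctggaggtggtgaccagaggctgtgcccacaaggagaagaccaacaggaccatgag
Plaur, second probe: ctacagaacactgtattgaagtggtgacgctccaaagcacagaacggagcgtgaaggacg

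The first probe had the higher mean signal and stands for the gene. At D180 it ran from 6.73 through 6.96 to 7.76 in vehicle rats and from 7.65 through 8.23 to 8.68 in DQ-12 rats, with 4 of 6 DQ-12 rats above every vehicle rat. Plaur was thus 2.05-fold higher at D180, a change of 1.04 ± 0.21 (SE, n = 6 per group), with a limma adjusted p of 0.000388 and an exact permutation p of 0.00866. One vehicle rat, at 7.76, stood above the lowest DQ-12 rats, at 7.65 and 7.72. At D1 the ranges overlapped fully, 6.96 to 8.21 against 7.30 to 8.03 (change 0.25, 95% CI -0.18 to 0.67). At D30 they were 6.83 to 7.45 against 7.30 to 7.77 (change 0.37, 95% CI -0.05 to 0.79, limma adjusted p = 0.410).

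The second probe separated the treatments at D1. It ran there from 6.34 through 6.67 to 7.32 in vehicle rats and from 7.53 through 7.81 to 8.05 in DQ-12 rats, all 6 above every vehicle rat. Tested with every probe on its own, its change was 1.06 ± 0.17 (SE), an FC of 2.08, with a limma adjusted p of 5.94e-05. At D30 it was 0.61 (adjusted p = 0.0553), and at D180 1.19 (7.74e-06), again with all 6 DQ-12 rats above every vehicle rat. With this probe Plaur would be a DEG at D1 as well as at D180.

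The difference between the 2 probes was taken within each array and compared between treatments. At D1 the second probe changed by 0.81 more than the first (exact two-sided permutation p = 0.00433, Benjamini-Hochberg adjusted p = 0.0390 over 9 such tests), with 5 of the 6 treated animals above the whole vehicle range. At D30 it was 0.24 more (adjusted p = 0.143) and at D180 0.15 more (0.623). With scan date as a fixed term the D1 changes were 0.77 on the first probe and 0.93 on the second. Both set the 6 DQ-12 rats against 1 vehicle rat, at 6.96 the lowest vehicle rat on the first probe. They therefore do not decide whether the probes differed at D1.

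**Figure D2:**
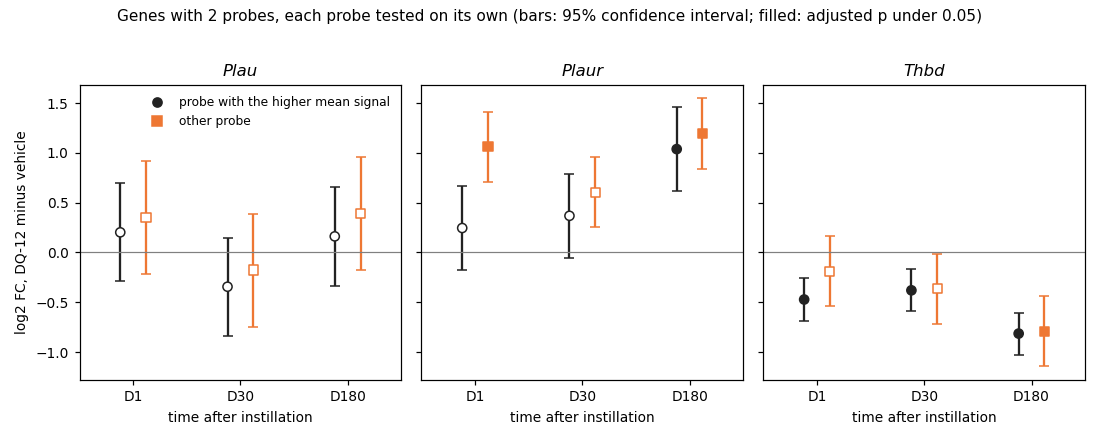
Change in log2 signal, DQ-12 minus vehicle (vertical axis), at D1, D30 and D180 for the 3 genes with 2 probes; circles are the probe with the higher mean signal and squares the other probe, bars are 95% confidence intervals of the limma fit on every probe, and filled symbols passed an adjusted p of 0.05. The 2 Plaur probes stand apart at D1 (0.25 and 1.06) and lie close at D180 (1.04 and 1.19).

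At D180 the Plaur change also passed with scan date as a fixed term (1.29, limma adjusted p = 8.61e-05). With slide fixed it was 0.59, the difference between 1 rat of each treatment on 1 slide. At D30 it passed with slide (0.61, adjusted p = 0.0404). With slide as a random term it was 0.96 (adjusted p = 0.000785), under an FC of 2. Within scan dates it was 0.77 at D1, 0.47 and 0.61 at D30 and 1.15 and 1.72 at D180, higher after DQ-12 in each. Leaving out 1 of 5 rats at D180 (vehicle 1, 2 or 3 or DQ-12 2 or 5) brought it under an FC of 2, to between 0.94 and 0.97, still with an adjusted p of at most 0.00209. The macrophage signals at D180 are given above with F13a1. Of 8 neutrophil markers 4 passed upward at D180, with summed signals of 10939 to 19126 in vehicle rats and 50119 to 72575 in DQ-12 rats. At D1, 1 of 8 did, with 10189 to 22781 and 13215 to 27862, and Mpo was not well above background in vehicle rats. At D30, where Plaur did not pass without a batch term, 2 of 8 neutrophil and 4 of 10 macrophage markers passed upward. Neutrophil signals there were 8939 to 19361 in vehicle rats and 24248 to 63987 in DQ-12 rats, without overlap. Macrophage signals were 13865 to 20065 and 20305 to 30464, also without overlap, and Marco was not well above background in vehicle rats. The part of either cell type in the Plaur result was not tested.

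The genes whose signal followed Plaur most closely over the 36 arrays were Csf2ra (Pearson r = 0.858) and Grn (r = 0.831), the highest of the 23733 other genes with a value on each array. Csf2ra encodes the alpha chain of the GM-CSF receptor, and Grn encodes progranulin. Their own changes at D1, D30 and D180 were -0.05, 0.21 and 1.04 for Csf2ra and 0.47, 0.55 and 0.93 for Grn. These are correlations across arrays that share treatment, scan date and array design.

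Thbd encodes thrombomodulin, the endothelial thrombin receptor, and was the gene of the 9 that passed at each time point. At D1 its signal ran from 14.38 through 14.58 to 14.78 in vehicle rats and from 13.97 through 14.13 to 14.17 in DQ-12 rats, with no overlap. The change was -0.47 ± 0.10 (SE, n = 6 per group), so Thbd was 1.39-fold lower (limma adjusted p = 0.00127). At D30 vehicle rats lay between 14.42 and 14.90 (median 14.62) and DQ-12 rats between 14.06 and 14.46 (median 14.31).

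There 4 of 6 DQ-12 rats were below every vehicle rat, and Thbd was 1.30-fold lower (change -0.38, limma adjusted p = 0.0263). Without vehicle rat 2 or 5 or DQ-12 rat 1, 2 or 4 of D30 it did not pass, with adjusted p from 0.0548 to 0.0873. At D180 the ranges were 14.54 to 15.08 (median 14.79) and 13.73 to 14.18 (median 13.95), again without overlap. Thbd was 1.76-fold lower at D180, a change of -0.81 ± 0.10 (SE, n = 6 per group), with a limma adjusted p of 4.18e-07 and an exact permutation p of 0.00216, the smallest this design allows. Ordered by mean, all 3 DQ-12 groups lay below all 3 vehicle groups. The step between DQ-12 at D30 and vehicle at D1, 0.30, was the one step that passed (limma adjusted p = 0.0352). These groups shared no slide or scan date, so treatment, time and batch cannot be told apart in that step.

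The second Thbd probe lies at chr3:137160721-137160780 on the minus strand in rn4, and the first at chr3:137158969-137159028 on the same strand. The second is shown because it gave a smaller change at D1.
Thbd, second probe: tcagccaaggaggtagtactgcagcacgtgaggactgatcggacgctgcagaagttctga

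The second probe gave -0.19 at D1 (limma adjusted p = 0.543 with every probe tested), -0.37 at D30 (0.340) and -0.79 at D180 (0.00144). At D180, 5 of 6 DQ-12 rats stood below all vehicle rats on it. The probes differed by 0.28 at D1 (exact permutation p = 0.0476, adjusted p = 0.143 over the 9 tests), 0.01 at D30 and 0.02 at D180. Taken as the median of both probes, Thbd did not pass at D1 (change -0.33, limma adjusted p = 0.0656) or D30 (-0.37, 0.0834) and passed at D180.

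With scan date as a fixed term the first probe's change was -0.27 at D1, -0.29 at D30 (limma adjusted p = 0.248) and -0.91 at D180 (8.69e-06). With slide it was -0.29 at D1, -0.33 at D30 (limma adjusted p = 0.0882) and -0.73 at D180. The D1 values with either term rest on 1 vehicle rat, and the D180 value with slide on 1 rat of each treatment. Within the scan dates that held both treatments the first probe's D1 change was -0.27, the same contrast as with the fixed term. It was -0.28 and -0.29 at D30, and -0.92 and, with 1 rat of each, -0.87 at D180, lower after DQ-12 in each. On the second probe the D1 change with scan date was 0.27. It is set against the same 1 vehicle rat, which at 8.64 was the lowest of its group on that probe.

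**Figure D3:**
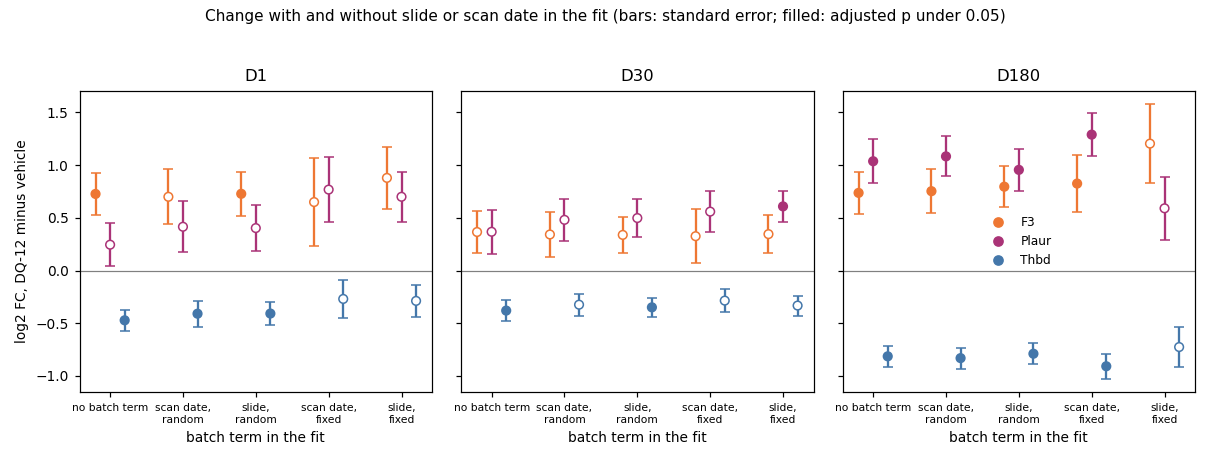
Change in log2 signal, DQ-12 minus vehicle (vertical axis), of F3, Plaur and Thbd at D1, D30 and D180 without a batch term and with scan date or slide as a random or a fixed term (horizontal axis); bars are standard errors and filled symbols passed an adjusted p of 0.05. The signs are the same under each term. With scan date fixed no gene passes at D30, and all 3 pass at D180. The fixed terms rest on 1 vehicle rat at D1, and slide fixed at D180 on 1 rat of each treatment.

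The median change of the endothelial markers had the same direction as Thbd at each time point. Of 10 markers, 0 passed limma's adjusted p at D1, where 4 had an unadjusted p under 0.05, all lower. Emcn, Esam and Tie1 were higher in DQ-12 rats at D1, by 0.12, 0.03 and 0.15, and did not pass. At D30 1 passed downward (Cldn5, a tight junction protein) and at D180 8 did, and the median change of the list was -0.19, -0.34 and -0.58. Their summed linear signal was 109943 to 127427 in vehicle rats and 90832 to 109424 in DQ-12 rats at D1, 122736 to 170258 and 115869 to 130084 at D30, and 125529 to 143742 and 70403 to 117815 at D180. Pecam1 and Cdh5, junction proteins of endothelium, fell by 0.46 and 0.58 on the log2 scale at D180. Alveolar type 1 markers passed downward in 4 of 7 cases at D1, 2 at D30 and all 7 at D180. No marker of these lists was below background in all rats of a group. Their part in the Thbd result was not tested.

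Procr encodes the endothelial protein C receptor. It differed by 0.06 at D1 (95% CI -0.27 to 0.39), by -0.49 at D30 (-0.82 to -0.16) and by -0.32 at D180 (-0.65 to 0.00), and no time point passed. At D30 vehicle rats ran from 8.47 to 8.95 (median 8.79) and DQ-12 rats from 7.83 to 8.58 (median 8.28), with 4 of 6 DQ-12 rats below every vehicle rat. The limma adjusted p was 0.0821 and the exact permutation p 0.00866, and within both scan dates the difference was lower, by 0.48 and 0.54. It passed with array weights (limma adjusted p = 0.0370). At D180, 3 DQ-12 rats lay at 7.72, 8.07 and 8.10, below every vehicle rat, and the other 3 at 8.79 to 8.84, inside the vehicle range of 8.46 to 9.02. With scan date the change there was -0.03 (limma adjusted p = 0.953). Endothelial markers beside it are those given with Thbd.

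**Figure D4:**
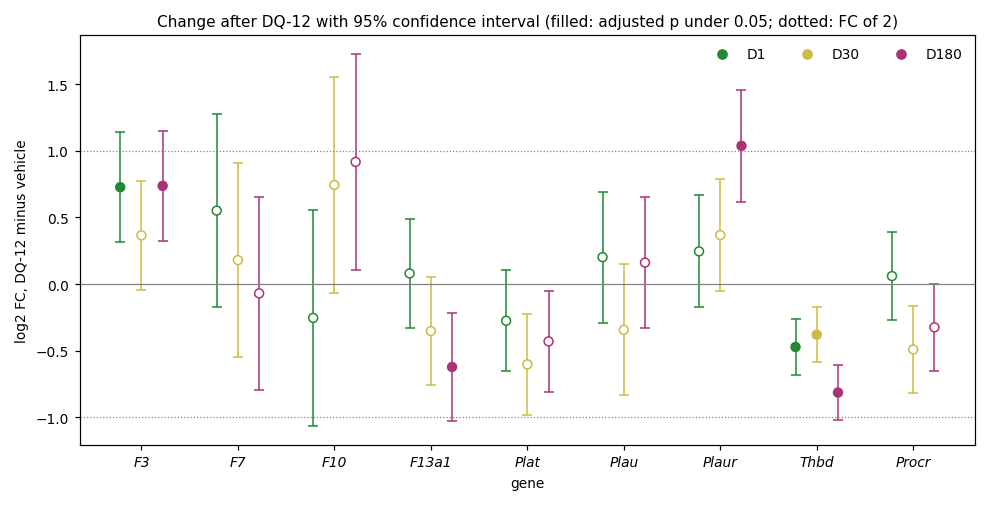
Change in log2 signal, DQ-12 minus vehicle (vertical axis), of the 9 genes (horizontal axis) at D1, D30 and D180; bars are 95% confidence intervals, filled points passed an adjusted p of 0.05, and the dotted lines mark an FC of 2. Plaur at D180 (1.04) is the one filled point beyond a dotted line.

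The change in each gene was then compared between time points in the same limma fit. Of 27 such differences 0 passed the adjusted p, where 2.18% of all genes tested did for D30 against D1, 0.246% for D180 against D30 and 4.55% for D180 against D1. At an unadjusted p under 0.05 there were 7 of 27, in 5 genes. On the first probe, the Plaur change was 0.79 greater at D180 than at D1 (95% CI 0.20 to 1.39, adjusted p = 0.119). The changes of the second Plaur probe were closer together, at 1.06 at D1 and 1.19 at D180. With scan date as a fixed term those of the first probe were 0.77 at D1, against 1 vehicle rat, and 1.29 at D180. The Thbd change was 0.43 further down at D180 than at D30 (difference -0.43, 95% CI -0.73 to -0.14, adjusted p = 0.204). With array weights, Plaur on the first probe passed between D180 and D1 (difference 1.03, limma adjusted p = 0.0173).

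RefSeq promoter windows (assembly GRCr8), the 250 bases before the annotated start, were matched for 6 of the 9 genes: Plaur, Procr, Plau, F10, F7 and F13a1. An AP-1 motif (TGANTCA, both strands) was found in the windows of Plaur and Procr, and in 6.34% of all 33469 windows. Counting the last base before the start as -1, the match began at -83 in Plaur and at -217 in Procr. The Plaur window, chr1:89181113-89181362 on the plus strand, is shown because Plaur was the DEG, with the motif in capitals.
Plaur, 250 bases before the start: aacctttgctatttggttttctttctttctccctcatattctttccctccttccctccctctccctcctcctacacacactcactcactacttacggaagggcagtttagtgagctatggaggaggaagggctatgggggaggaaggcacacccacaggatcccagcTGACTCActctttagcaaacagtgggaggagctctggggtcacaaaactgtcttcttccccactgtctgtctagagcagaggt

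Procr carried the same motif and did not pass at any time point. An Sp1 motif (GGGCGG, both strands) was found 3 times in the window of Plau and in none of the other 5, against 30.5% of all windows. An NF-kB motif (GGGNNTTCC, both strands) was found in the windows of Plau, F10 and F13a1, against 5.09% of all windows. No matches of different motifs overlapped in these windows. A match is a description of letters and not of binding.

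The other genes of coagulation and fibrinolysis were taken from a list of 43, of which 42 were on the array and 40 were tested. F9 and Klkb1 did not pass the filter on dim probes, and Hrg was not on the array. At D1, 6 of 40 passed upward and 3 downward; at D30, 4 and 0 (by unadjusted limma p under 0.05, 11 and 0); at D180, 9 and 4. The DEGs among them were 5, 3 and 7 of 40, where 3.07%, 1.05% and 3.63% of all genes tested were DEGs. The list was chosen with earlier results of these data known. It holds Kng2, which the study selected on these same rats, and its close copy Kng1. These counts are therefore not independent evidence of an excess of DEGs. Of all genes tested, 7.58%, 2.74% and 7.82% passed upward and 8.62%, 1.24% and 9.0% downward. The median change of the list was 0.15, 0.17 and 0.19, beside -0.01, -0.02 and -0.03 over all genes. The limits given above for the fixed batch terms hold for these genes too.

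**Figure D5:**
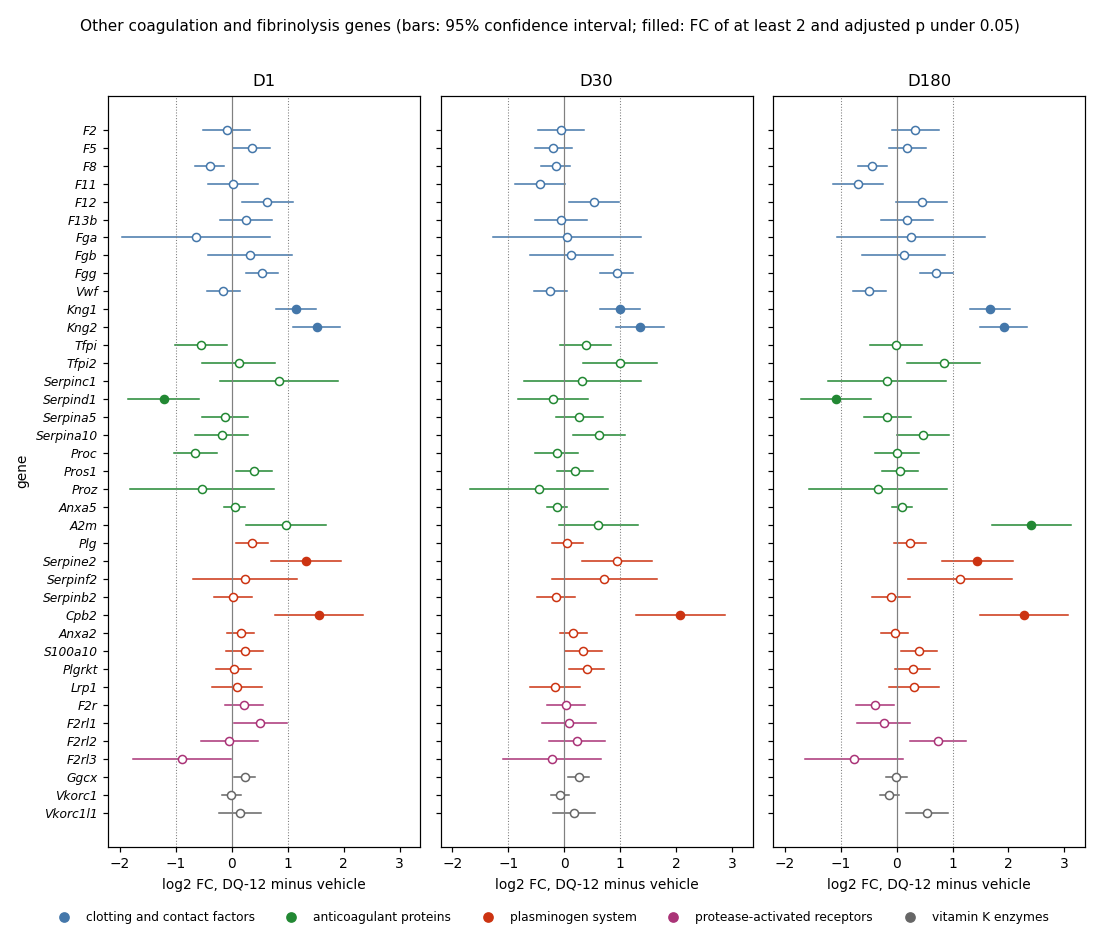
Change in log2 signal, DQ-12 minus vehicle (horizontal axes), of the other coagulation and fibrinolysis genes reported (vertical axis, coloured by role) at D1, D30 and D180; bars are 95% confidence intervals and filled points are DEGs. Kng1, Kng2 and Cpb2 are filled at each time point, and the filled points below 0 are those of Serpind1 at D1 and D180.

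Kng1 and Kng2 encode kininogens, from which kinins are released, and for both genes the treatments did not overlap at any time point. Kng1 ran from 12.76 to 13.44 in vehicle rats and from 14.24 to 15.67 in DQ-12 rats at D180. It was 2.21-fold, 2.00-fold and 3.19-fold higher at D1, D30 and D180, and Kng2 was 2.86-fold, 2.55-fold and 3.76-fold higher. The 2 genes are close copies, so that their probes may share signal, and Kng2 was selected by the study on these same rats, so that its direction is not independent evidence. With scan date as a fixed term Kng1 was 1.00 and Kng2 1.43 at D1, and neither passed (limma adjusted p = 0.144 and 0.0710). Kng1 at D30 lay at the FC limit and fell under it with scan date (0.85) or slide (0.85) as a fixed term, and without any 1 of 6 rats of D30 (0.94 to 0.99), with adjusted p still under 0.05. Fgg, the fibrinogen gamma chain, also passed upward at each time point, by 0.54, 0.94 and 0.71, under an FC of 2.

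Other clotting factors, tested without a batch term, that passed were F12 upward at D1, and F8 downward at D1 and D180. F11 and Vwf passed downward at D180. F8 and Vwf, which endothelium makes, were lower by 0.43 and 0.49 there, and for both genes all 6 DQ-12 rats lay below every vehicle rat.

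Of the anticoagulant proteins, A2m, the broad protease inhibitor alpha-2-macroglobulin, was 5.31-fold higher at D180 (change 2.41 ± 0.35, SE, limma adjusted p = 5.01e-06). It ran from 3.55 to 5.27 in vehicle rats and from 5.68 to 7.09 in DQ-12 rats, without overlap. With slide as a fixed term it was 2.30 and did not pass (adjusted p = 0.174). Serpind1, which encodes heparin cofactor II, was 2.33-fold lower at D1 and 2.12-fold lower at D180, with all 6 DQ-12 rats below every vehicle rat at both. Of the DQ-12 arrays, 2 of 6 at D1 and 4 of 6 at D180 were well above background for it. At D1 it did not pass with scan date (-1.92, limma adjusted p = 0.101) or slide (-2.05, 0.0539) as a fixed term, and at D180 not with slide (-0.63, 0.810). Without DQ-12 rat 2 of D1 its change there was -0.99, under an FC of 2, and without DQ-12 rat 2 of D180 it was -0.75 and did not pass (adjusted p = 0.0515). Proc, which encodes protein C, passed downward at D1, by 0.65 on the log2 scale. Tfpi, Serpinc1 and Pros1 did not pass at any time point.

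In the plasminogen system, Serpine2, protease nexin 1, was 2.51-fold higher at D1 and 2.72-fold at D180. With scan date as a fixed term it did not pass at D1 (0.68, limma adjusted p = 0.653), and with slide it passed neither at D1 (0.84, 0.477) nor at D180 (1.15, 0.518). Cpb2 encodes the carboxypeptidase that slows fibrinolysis. It was well above background on 0 of 6 vehicle arrays at D1 and D30 and on 4 of 6 DQ-12 arrays at both, which gives at least 1.73-fold and at least 1.70-fold higher (limma adjusted p = 0.00513 and 0.000908). At D180 it was well above background on 1 vehicle array and all 6 DQ-12 arrays, from 3.00 to 4.38 and from 4.64 to 8.20. It did not pass at D1 with scan date (0.80, limma adjusted p = 0.692) or slide (0.68, 0.634) as a fixed term, nor at D180 with slide (1.54, 0.375). Plg, Serpinf2, Anxa2 and S100a10 did not pass.

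Hepatocyte markers were measured beside these genes, several of which the liver expresses strongly. Of 7, none passed limma's adjusted p upward at any time point, and none had an unadjusted p under 0.05 upward. Downward, 2 passed at D1, 1 at D30 and 1 at D180. Their summed signal was 483 to 751 in vehicle rats and 291 to 514 in DQ-12 rats at D1, and 738 to 1750 and 385 to 634 at D180. Alb, Apoa1 and Cps1 were well above background on no array of the treated animals at D1 or D180. The part of liver RNA in these results was not tested. The protease-activated receptors and vitamin K enzymes held 1 gene each that passed, F2rl2 and Vkorc1l1, both upward at D180 by 0.74 and 0.54.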

How the data were processed

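Lung RNA of 36 rats was measured on one-colour arrays that the authors scanned and read with Agilent Feature Extraction 12.0.1.1. The deposited array files hold linear intensity values per spot, and the background-corrected signal was used. The deposited series table holds the authors' log2 values, which were matched by the logarithm of that signal minus the array's 75th percentile (median absolute difference 0.00177 log2 over 1641055 values). The study's methods name quantile normalization, limma, an FC of 2 and a batch correction whose variable is not given in the sources used here. Here outlier and control spots were left out, spots of a probe were averaged, and a probe stayed in if its signal on 6 or more arrays was over that array's 95th percentile of negative control spots. The log2 signals were quantile-normalized, and the probe with the highest mean stood for each gene (23940 genes). The 6 group means were estimated with limma 3.58.1 in R 4.3.3, without a batch term, sharing one spread per gene, with Benjamini-Hochberg adjustment over all genes of a contrast. The fit without a batch term was tested on simulated data with independent noise. How it behaves under the shared slides and scan dates of these arrays was not tested. A probe counted as well above background when a share of at least 0.5 of its spots were flagged so by the scanner software. Signals are not comparable between probes. Groups were taken from the sample labels, and each sample is a rat. Named genes were all 9 members and their 12 probes, every DEG of the pathway list, the 2 genes that correlate most with a member that was a DEG, and further list members named with their values after these were seen. The result of 1 gene of the pathway list is not reported here, although the counts over the list include it. The members and lists were chosen with earlier results of these data known. Of the 12 probes, 11 carry an accession that RefSeq (GRCr8) gives the same gene symbol. Alternatives covered intensity, background, scaling, filters, probes, array weights, moderation, thresholds, slide, scan date, replicate number and each rat left out. Every probe tested with a batch term was added after seeing the data.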

Additional observations from a re-analysis of the deposited data

Results flagged for a closer look

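Of 54 groups of 6 rats tested for a value far from the others (9 genes in 6 groups), 3 held one, and about 1 in 20 groups is marked so by chance. In F3 the vehicle rat with replicate number 4 at D180 had a log2 signal of 12.1, below the next at 12.64. In F7 the vehicle rat with replicate number 1 at D30 had 3.74, above the next at 2.68, on a probe that was not well above background there. In Thbd the DQ-12 rat with replicate number 2 at D1 had 13.97, below the next at 14.11. Without this rat, or any other, Thbd at D1 kept its direction and passed the limma adjusted p in all 36 fits, and F3 at D180 did so too.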

How the results depend on the processing

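Numbers of genes past a threshold changed as follows against the values in the report. The 1 member DEG at D180 became 0 with median intensity without background correction, normexp, slide as a fixed or random term, every probe with slide, and a test against an FC of 2 (treat), and 4 at an FC of 1.5. The 0 member DEGs at D1 became 1 with every probe tested and at an FC of 1.5, and the 0 members whose change differed between time points became 1 with array weights. Members past the adjusted p at D1, 2 in the report, were 1 with scan date as a random term and 0 with scan date or slide as a fixed term, also with every probe. At D30 the 1 became 2 with median intensity, normexp, probes well above background, trend and robust moderation and the replicate block, 3 with array weights, and 0 with the median over probes, the 12 arrays alone, scan date fixed or random, and every probe with scan date or slide. At D180 the 4 became 0 with slide fixed, alone or with every probe, and 2 with every probe and scan date. Pathway DEGs at D1, 5 in the report, were 3 with median intensity, normexp and scan date random, 2 with slide fixed, alone or with every probe, 1 with every probe and scan date, and 0 with scan date fixed and treat. At D30 the 3 became 1 with median intensity and normexp, 5 with array weights and 0 with treat. At D180 the 7 became 2 with slide fixed, alone or with every probe, and 3 with treat. F13a1 at D180 was 0.13 with slide fixed, from 1 rat of each treatment. The causes were not tested, apart from thresholds, where fewer or more genes pass by construction. Leaving out each rat in turn gave 0 to 0 member DEGs at D1 and D30, 0 to 1 at D180 and 0 to 0 between time points; 2 to 2, 0 to 2 and 3 to 4 members past the adjusted p; and 5 to 6, 2 to 4 and 5 to 9 pathway DEGs. Rats with the same replicate number did not deviate together (r from -0.13 to 0.22 over 18 pairs, 6 over 0.1, and 5 closest to their own number), so the numbers were not taken as pairs, and the replicate block changed no other count by over 1.5 times. Of 453 values of the members at single time points under the alternatives, 11 changed sign, 1 of them a value that had passed (F13a1). Over all genes, DEGs at D1 fell from 736 to 176 with scan date fixed. At D180 1 slide of 10 held both treatments, which limits the fit with slide. At D1 1 vehicle rat shared a scan date or slide with DQ-12 rats, which limits both fixed terms there. F7 and F10 lay near background, where small changes cannot be measured.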
